A study of Homo sapiens with 2 samples.

Results

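The genes described here are 10 genes that act in the last step of cell division, or in the actin signalling that it shares with cell movement: ECT2, RACGAP1, KIF23, ANLN, PRC1, RHOA, CDC42, RAC1, PAK1 and PAK2. They were taken from the transcript list by gene name and make up 10 of 57110 gene entries and 34 of 99493 transcripts. The group was chosen by measured values: the transcript shares of ECT2 and the levels of these genes by line and by proliferation markers were known from this library when it was drawn up. The study mixed equal parts of COV504, IGROV1 and SK-OV-3, established human lines grown from ovarian tumours, and profiled single cells with Illumina and with nanopore PromethION sequencing, which reads long cDNA molecules. The values come from the PromethION library, for which estimated counts per transcript and cell barcode were deposited. This is 1 library of pooled cultured cells, so no value has a replicate, no difference between groups was tested, and every interval is a 95% interval that covers counting error only.

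Cytokinesis is the physical separation of daughter cells after the chromosomes have moved apart. PRC1 bundles the antiparallel microtubules of the central spindle. KIF23, a kinesin-6 motor, and RACGAP1, a GTPase-activating protein, form the centralspindlin complex there and recruit ECT2, a guanine nucleotide exchange factor. ECT2 loads RHOA with GTP at the equator, and active RHOA drives formins and myosin II into a contractile ring that the scaffold ANLN ties to the membrane and the septins. CDC42 and RAC1 are small GTPases that direct actin remodelling, and the kinases PAK1 and PAK2 are their effectors. ECT2, KIF23, RACGAP1, ANLN and PRC1 are known as genes whose transcripts peak late in the cell cycle.

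Barcodes were sorted into lines by marker genes. A barcode needed at least 1000 counts and at least 75% of its marker counts on 1 of 3 marker groups. The rule placed 1886 of 2462 barcodes. The SK-OV-3-like line (ERBB2, NNMT, TSPAN1 and DHRS2) held 648 barcodes and 3442383 counts. The RARRES2-high line (RARRES2 and TMEM100) held 473 barcodes and 3377992 counts. The FOLR1-high line (FOLR1, CLDN3, DEFB1 and CXCL14) held 765 barcodes and 4514999 counts. Depth per barcode in the lines had a median of 5361 counts and ran from 1009 to 25670. The SK-OV-3 check genes ERBB2, GRB7, MIEN1, STARD3 and PGAP3, neighbours in the amplified region of chromosome 17, were each highest in the SK-OV-3-like line, with ERBB2, one of the sorting genes, at 428 CPM (the gene's counts scaled to the same total in each line) against 19.5 and 21.5 in the RARRES2-high and FOLR1-high lines. CDKN2A, a gene lost in SK-OV-3, had 1 count there, 0 in the RARRES2-high line and 88 in the FOLR1-high line. Of the IGROV1 check genes, FOLR1 and CLDN3 are sorting genes of the FOLR1-high line and were highest there by the rule. Of the other 3, PAX8 was highest in the FOLR1-high line and CDH1 and ESRP1 in the RARRES2-high line, so neither of these lines was given a cell line name. Among markers of cells the pool should not hold, CD3E had 0 counts in each line, PTPRC and HBB at most 1 and PECAM1 at most 8, while CD68, which many cell types also express, stood at 549, 746 and 1137 CPM in the SK-OV-3-like, RARRES2-high and FOLR1-high lines. Scrublet marked 69 of 2378 scored barcodes (2.90%) as doublets, 24 of them inside the lines. Another 243 barcodes had at least 1000 counts but met no line's rule, and 333 had fewer than 1000 counts.

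The results turn first on an exon of ECT2. ECT2 spans 172750682 to 172821474 on the plus strand of chromosome 3 (GRCh38). Its transcript ENST00000392692 carries, as exon 4 of 25, a coding exon of 93 bases (chr3:172755483-172755575) that adds 31 codons in frame and that no other listed ECT2 transcript holds. The exon is shown because the share of ECT2 counts that carry it differed most between the lines among the cytokinesis genes, and it is set beside the alternative coding exons of ANLN (chr7:36417080-36417190, exon 9 of ENST00000265748), PRC1 (chr15:90969079-90969120, minus strand, exon 14 of ENST00000394249), KIF23 (chr15:69425282-69425323, exon 8 of ENST00000559279) and RAC1 (chr7:6398662-6398718, exon 4 of ENST00000356142, the exon that defines RAC1B). Positions are those of GENCODE 29. Each sequence below is the exon in the direction of transcription, read from the transcript sequences of that release.
ECT2 exon: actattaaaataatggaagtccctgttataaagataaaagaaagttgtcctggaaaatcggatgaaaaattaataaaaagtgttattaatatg
ANLN exon: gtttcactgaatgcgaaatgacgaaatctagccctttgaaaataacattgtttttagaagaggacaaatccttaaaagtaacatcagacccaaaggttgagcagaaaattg
PRC1 exon: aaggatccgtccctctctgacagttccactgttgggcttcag
KIF23 exon: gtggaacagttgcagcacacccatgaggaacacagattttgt
RAC1B exon: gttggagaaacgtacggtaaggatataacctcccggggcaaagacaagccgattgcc
The 5 exons are 93, 111, 42, 42 and 57 bases long, each a whole number of codons. The ECT2 exon had the lowest G and C content of the 5, at 24.7%, against 35.1% in ANLN, 54.8% in PRC1, 47.6% in KIF23 and 52.6% in RAC1.

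The exon of ECT2 was common in 2 of the lines and scarce in the other. Transcripts that hold it took 57.1% of ECT2 counts in the SK-OV-3-like line (interval 51.2 to 62.6%, 302 counts), 24.1% in the RARRES2-high line (20 to 28.5%, 412 counts) and 71.4% in the FOLR1-high line (66.9 to 75.7%, 431 counts). The 3 intervals do not overlap, and the FOLR1-high share exceeded the RARRES2-high share by 47.3 percentage points (41.1 to 53.2). ECT2 was put on this gene list with its exon difference known, so these shares are a description. The form without the exon, ENST00000232458, took 30.0% in the SK-OV-3-like line, 59.1% in the RARRES2-high line and 21.1% in the FOLR1-high line, the reverse order. Another named form, ENST00000540509, lacks the 93-base exon and holds a noncoding exon of 323 bases near its 5′ end. All forms with that noncoding exon took 12.4%, 15.7% and 7.0% of ECT2 counts in the same order of lines.

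Reads that cannot tell the forms apart enter these shares, so the shares were also taken from barcodes with a single ECT2 count. In the 420 such barcodes of the library, the value given to the exon form was exactly 1 in 134 and exactly 0 in 127. It was 0.25 in 120, 0.2 in 28, 0.5 in 9 and 0.333 in 2, values that an equal split over several listed forms would give. Among barcodes of the lines whose single count lay wholly on forms with or without the exon, the exon form held 58.3% of 48 in the SK-OV-3-like line (interval 43.2 to 72.4%), 21.6% of 74 in the RARRES2-high line (12.9 to 32.7%) and 74.8% of 103 in the FOLR1-high line (65.2 to 82.8%). The order was the same, and the difference between the highest and the lowest line was 53.1 points (38.5 to 65.0). The noncoding exon took 3.85% of 52, 8.22% of 73 and 0.94% of 106 by this measure, which under-represents it: 0% and 13.3% of the counts of its forms were whole estimates, against 37.3% and 40.2% for ENST00000392692 and ENST00000232458.

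Both forms were found in the same barcode in every line. Among barcodes with at least 2 ECT2 counts given wholly to a form, 7 of 17 in the SK-OV-3-like line, 14 of 29 in the RARRES2-high line and 11 of 34 in the FOLR1-high line held both. The 243 barcodes that met no line's rule held 169 ECT2 counts with an exon share of 40.5% (32.8 to 48.0%), between the shares of the RARRES2-high and SK-OV-3-like lines. Barcodes close to the 75% limit were few. From 75 to 80% there were 21, 48 and 16 barcodes in the SK-OV-3-like, RARRES2-high and FOLR1-high lines, with 10, 40 and 4 ECT2 counts (86.6, 97.3 and 40.2 CPM). From 70 to 75%, just outside, there were 9, 25 and 5, with 11, 25 and 5 ECT2 counts (157, 121 and 93.7 CPM), too few to compare.

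**Figure D1:**
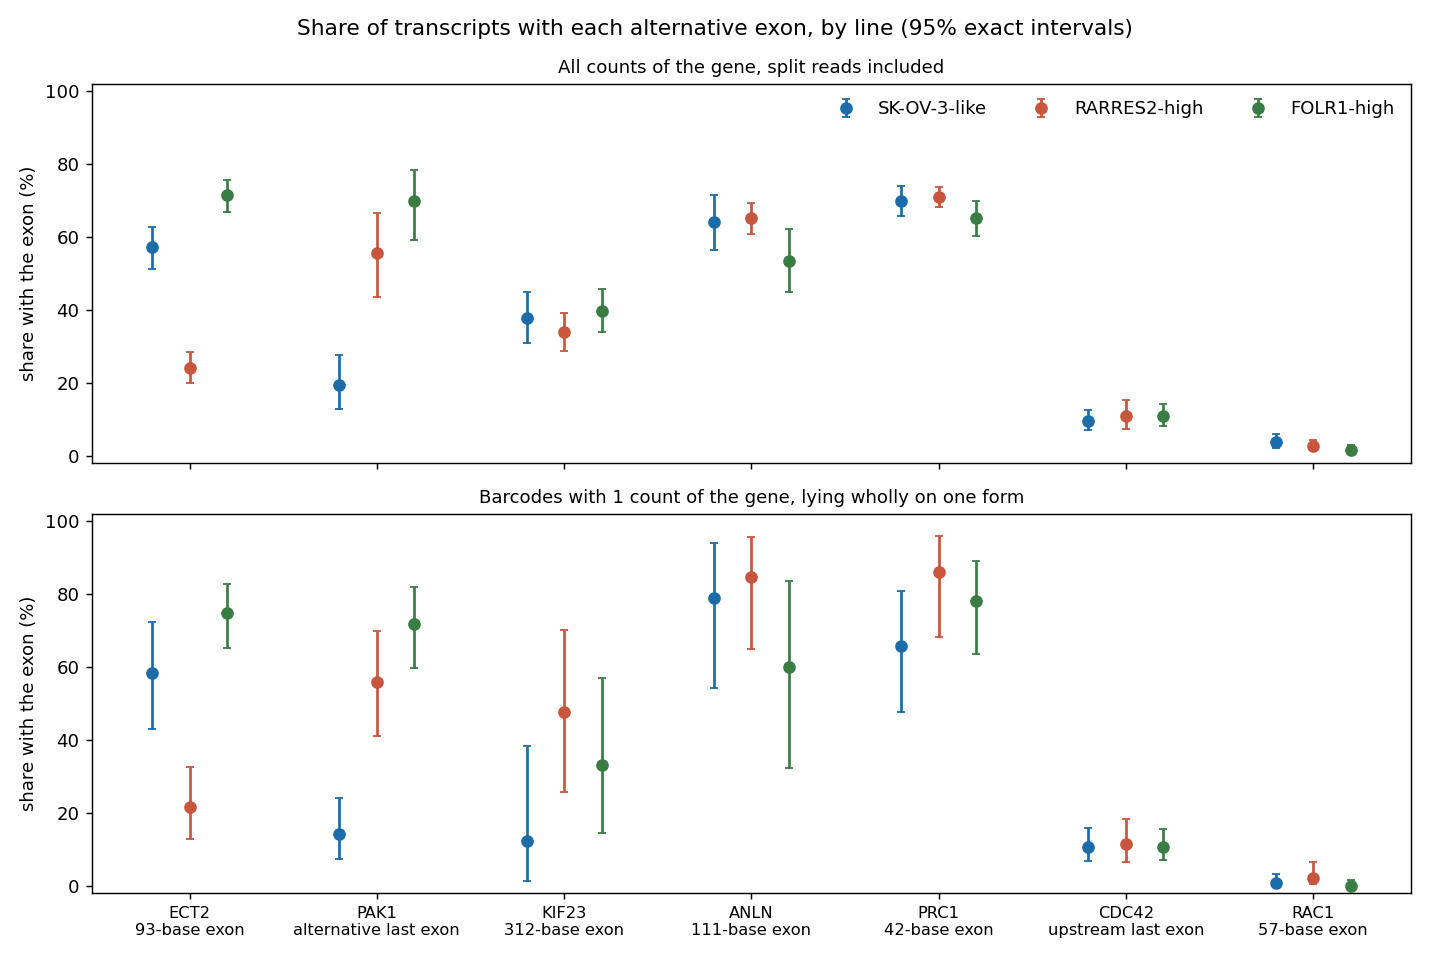
Share of each gene's transcripts that hold the named alternative exon, in percent, for the 3 lines, from the counts of the gene in the first panel and from barcodes with a single, wholly assigned count in the second; points are shares and bars 95% exact binomial intervals. The ECT2 exon separates the RARRES2-high line at 24.1% from the SK-OV-3-like line at 57.1% and the FOLR1-high line at 71.4%, and the alternative last exon of PAK1 separates the SK-OV-3-like line at 19.3% from the others.

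PAK1 was the other gene with a large difference in transcript use. PAK1 lies on the minus strand of chromosome 11, from 77321707 to 77474062. Transcript ENST00000530617 begins at its own first exon and ends in a last exon whose splice acceptor lies 206 bases further along the gene than in the other forms (77322017 to 77323154, 15 coding bases). It took 19.3% of PAK1 counts in the SK-OV-3-like line (interval 12.9 to 27.6%, 123 counts), 55.5% in the RARRES2-high line (43.4 to 66.4%, 78 counts) and 69.9% in the FOLR1-high line (59.3 to 78.3%, 98 counts). The SK-OV-3-like line was low and its interval overlapped neither of the others, while the intervals of the RARRES2-high and FOLR1-high lines overlapped. The FOLR1-high line exceeded the SK-OV-3-like line by 50.6 points (37.1 to 61.1). From single, wholly assigned counts the shares were 14.3% of 77, 56.0% of 50 and 71.8% of 71, a difference of 57.5 points (42.1 to 69.7). ENST00000356341 took 59.4%, 36.8% and 28.6% in the same order of lines. ENST00000278568, which holds an exon of 49 bases before its last exon, took 20.9%, 7.4% and 1.0%. With a rare further form, the 49-base exon took 21.3%, 7.7% and 1.5% of all PAK1 counts, but 1 of 50, 0 of 48 and 0 of 81 single, wholly assigned counts. Only 5.8% of the counts of ENST00000278568 were whole estimates, against 43.2% for ENST00000356341 and 79.4% for ENST00000530617, so wholly assigned counts under-represent the 49-base exon and neither bear on its difference nor bound its share.

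A difference of at least 20 percentage points in the share of any transcript between any 2 lines, with at least 50 counts of the gene in each, was found for 2 of the 9 genes that could be compared, ECT2 and PAK1. Over all genes compared the same limit was passed by 4.62% (234 of 5062). PAK1 ranked 11 and ECT2 ranked 16 by the size of this difference among the 5062 genes. The median difference was 5.97 points over the 9 genes and 4.90 over all, so apart from ECT2 and PAK1 the group lay near the ordinary range. PAK2 has 1 listed transcript and could not be compared.

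For the other members no transcript share differed by 20 points between lines in all counts. In RACGAP1, ENST00000312377 took 40.8%, 42.4% and 37.2% of counts in the SK-OV-3-like, RARRES2-high and FOLR1-high lines, ENST00000454520 took 35.0%, 32.5% and 38.2%, and ENST00000427314 took 22.8%, 24.7% and 23.7%. These 3 forms have the same coding length of 1896 bases. In KIF23, whose exon of 312 bases (chromosome 15, 69440768 to 69441079, 104 codons) defines the longer form known as CHO1, forms with that exon took 37.8%, 33.8% and 39.7%. Whole estimates held 4.6% of KIF23 counts, the lowest share of the 10 genes, so the forms of KIF23 were poorly resolved. Single, wholly assigned counts gave the CHO1 exon in 2 of 16, 10 of 21 and 7 of 21 barcodes, with wide intervals of 1.6 to 38.3%, 25.7 to 70.2% and 14.6 to 57%. Whole estimates gave it in 3 of 9, 11 of 18 and 6 of 6 counts, another order of the lines, with a difference of 38.9 points (−11.9 to 64.3) between the FOLR1-high and RARRES2-high lines, so no order can be read for this exon. The 42-base exon of KIF23 took 33.6%, 37.2% and 31.5% of all counts, a difference of 5.7 points, and 3 of 5, 3 of 13 and 0 of 7 single, wholly assigned counts. With so few such counts the difference of 23.1 points between the RARRES2-high and FOLR1-high lines had an interval of −21.7 to 53.8.

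ANLN with its 111-base exon took 64.1%, 65.2% and 53.3% of counts in the SK-OV-3-like, RARRES2-high and FOLR1-high lines, and the difference between the RARRES2-high and FOLR1-high lines was 12.0 points (2.2 to 21.3). Single counts gave 78.9% of 19, 84.6% of 26 and 60% of 15, with a difference of 24.6 points whose interval, from −6.0 to 54.4, includes 0. With whole estimates alone the difference was 4.1 points (−12.8 to 21.3), so the size of the ANLN difference was not settled. PRC1 with its 42-base exon took 69.9%, 71.1% and 65.1%, with a difference of 6.0 points (0.3 to 11.5). In single counts the shares of PRC1 were 65.7% of 35, 86.2% of 29 and 78.3% of 46. The order of the lines changed between the measures for PRC1, and with whole estimates alone the RARRES2-high share minus the FOLR1-high share was −7.43 points, so no order of the lines can be read for it.

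Among the GTPases, RHOA was almost a single form, with ENST00000418115 at 99.8%, 99.8% and 99.6% of counts. RAC1B, the splice form of RAC1 with the 57-base exon that is known as a self-activating variant in tumours, was scarce: it took 3.8% of RAC1 counts in the SK-OV-3-like line (2.2 to 6.0%), 2.6% in the RARRES2-high line (1.5 to 4.2%) and 1.5% in the FOLR1-high line (0.6 to 2.9%). Single, wholly assigned counts gave 2 of 206, 3 of 130 and 0 of 222, but 29.2% of RAC1B counts were whole estimates against 83.2% for the main form, so this measure under-represents RAC1B and its zero sets no limit on the share. CDC42 ends in alternative last exons, and the form with the upstream one (ENST00000315554), known as the brain isoform, took 9.7%, 11% and 10.9% of counts and 10.8% of 203, 11.5% of 130 and 10.8% of 231 single counts. Its share differed between lines by 1.3 points with an interval of −3.2 to 6.2.

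Levels of the genes were compared in CPM. ECT2 had 87.7 CPM in the SK-OV-3-like line (interval 78.1 to 98.2), 122 in the RARRES2-high line (110 to 134) and 95.5 in the FOLR1-high line (86.7 to 105). The RARRES2-high line was highest, and the SK-OV-3-like and FOLR1-high intervals overlapped. Its exon share and its level did not follow the same order, since the FOLR1-high line, with the highest share, had the middle level.

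KIF23 and RACGAP1, the partners in centralspindlin, both had their highest value in the RARRES2-high line. KIF23 (chromosome 15, 69414246 to 69448427, plus strand) had 56.4 CPM in the SK-OV-3-like line, 102 in the RARRES2-high line and 62.0 in the FOLR1-high line. RACGAP1 (chromosome 12, 49976923 to 50025494, minus strand) had 34.3, 45.0 and 19.7 CPM in the same order. For KIF23 the intervals of the SK-OV-3-like line (48.7 to 64.9) and the FOLR1-high line (55.0 to 69.7) overlapped, so its lowest line was not resolved. For RACGAP1 the FOLR1-high line was low (15.8 to 24.3), while the intervals of the SK-OV-3-like line (28.4 to 41.1) and the RARRES2-high line (38.1 to 52.7) overlapped.

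ANLN and PRC1 differed more. The scaffold gene ANLN (chromosome 7, 36389806 to 36453791, plus strand) had 47.1 CPM in the SK-OV-3-like line (40.1 to 54.9), 148 in the RARRES2-high line (135 to 162) and 31.0 in the FOLR1-high line (26.1 to 36.6). The microtubule bundler PRC1 (chromosome 15, 90966038 to 90995629, minus strand) had 145 CPM (132 to 158), 301 (283 to 320) and 86.6 (78.2 to 95.6). In both genes the RARRES2-high line was high, the FOLR1-high line low and no intervals overlapped, with a fold between highest and lowest line of 4.66 for ANLN and 3.45 for PRC1.

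The GTPases and kinases were more even. RHOA (chromosome 3, 49359145 to 49412202, minus strand) had 327, 403 and 279 CPM in the SK-OV-3-like, RARRES2-high and FOLR1-high lines. RAC1 (chromosome 7, 6374523 to 6403977, plus strand) had 124, 181 and 121 CPM, with the RARRES2-high line high and overlapping intervals for the others. CDC42 (chromosome 1, 22052627 to 22092946, plus strand) had 148, 81.7 and 93.2 CPM, with the SK-OV-3-like line high. PAK2 (chromosome 3, 196739857 to 196832647, plus strand) had 211, 225 and 139 CPM, with the FOLR1-high line low. PAK1 had 35.7, 23.1 and 21.7 CPM, highest in the SK-OV-3-like line, the line in which its alternative last exon was least used. These levels are not scaled by length and are compared within a gene only.

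A fold of at least 2 between the highest and the lowest line, with 1 CPM added, was found for 3 of the 10 genes, RACGAP1 (2.22), ANLN and PRC1, against 54.5% of all 8486 genes with at least 100 counts. The median fold was 1.70 over the 10 genes and 2.11 over all. By level, the 10 genes therefore differed between lines no more often than genes at large. When the CPM of single barcodes were averaged, KIF23 passed the limit and RACGAP1 did not.

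**Figure D2:**
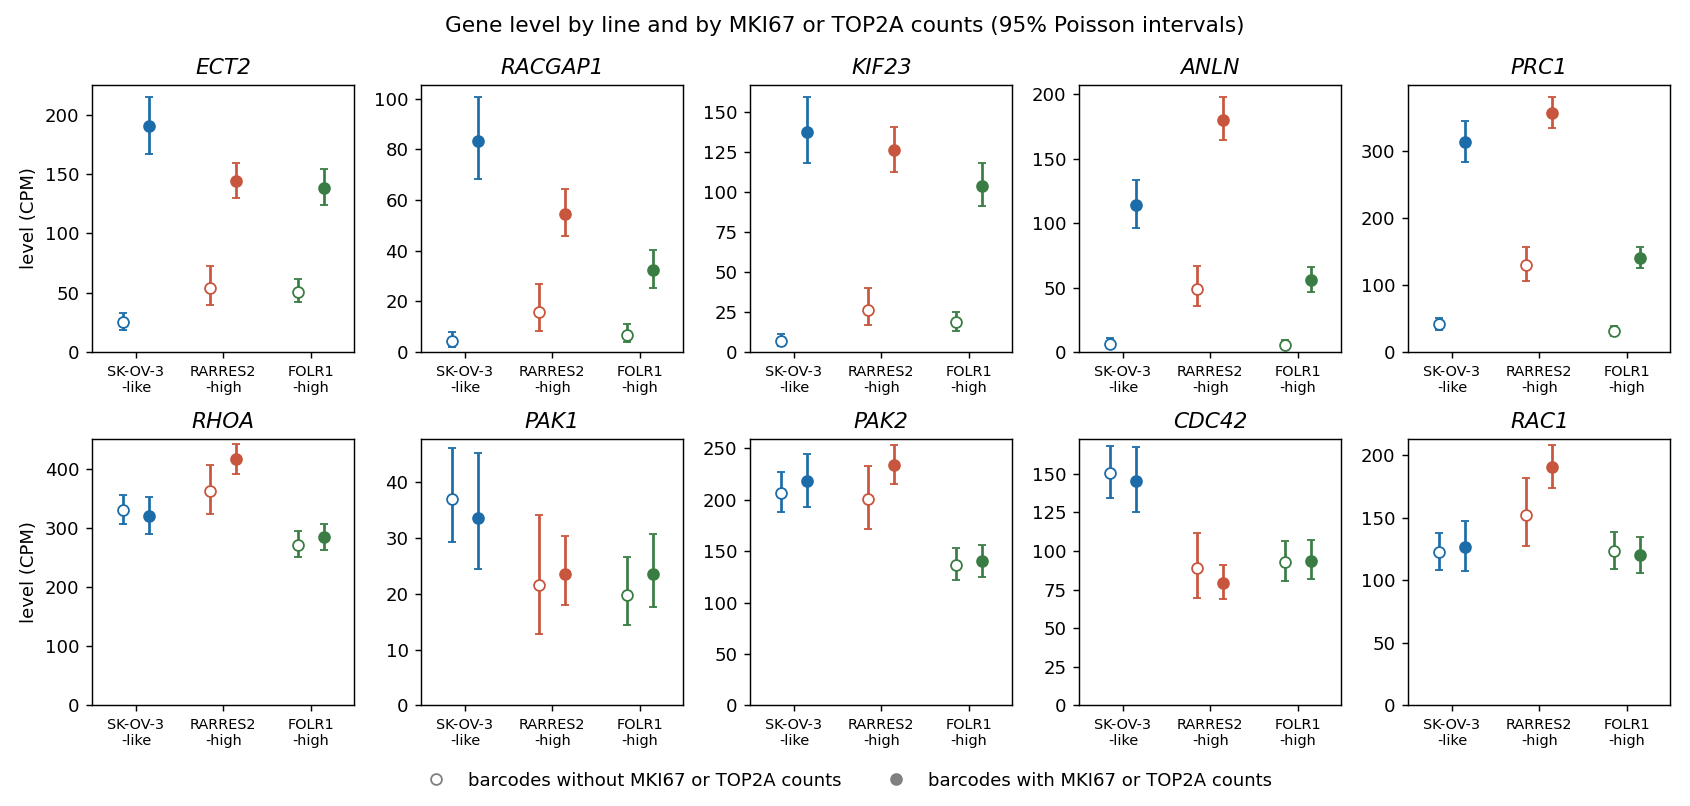
Level of each of the 10 genes in CPM by line, in barcodes with and without counts of MKI67 or TOP2A; bars are 95% exact Poisson intervals and each panel has its own axis from 0. ECT2, RACGAP1, KIF23, ANLN and PRC1 are higher in barcodes with these counts in each line, for example ECT2 at 190 against 24.8 CPM in the SK-OV-3-like line, while RHOA, PAK1, PAK2, CDC42 and RAC1 lie close together.

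Barcodes were then split by whether they held any count of MKI67, the Ki-67 proliferation antigen, or TOP2A, the topoisomerase of mitotic chromosomes. Such counts were found in 194 of 648 SK-OV-3-like barcodes (29.9%), 305 of 473 RARRES2-high barcodes (64.5%) and 344 of 765 FOLR1-high barcodes (45.0%). Depth moves with this split: the median was 6628.5 counts with and 4510.5 without in the SK-OV-3-like line, 7592 and 4682.5 in the RARRES2-high line, and 5858 and 4862 in the FOLR1-high line. The split was part of how these genes were chosen, so the differences that follow are descriptions.

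The 5 cytokinesis genes were higher with MKI67 or TOP2A counts in each line. ECT2 had 190 CPM with and 24.8 without in the SK-OV-3-like line (ratio 7.67, interval 5.68 to 10.5), 144 and 54.0 in the RARRES2-high line (2.67, 1.96 to 3.73) and 138 and 50.9 in the FOLR1-high line (2.72, 2.19 to 3.40). The SK-OV-3-like line thus had the highest ECT2 level among barcodes with these counts and the lowest among barcodes without. KIF23 had 138 and 6.56 CPM in the SK-OV-3-like line, a ratio of 21.0 (12.2 to 39.2), 126 and 26.4 in the RARRES2-high line and 104 and 18.5 in the FOLR1-high line. RACGAP1 had 83.4 and 4.22, 54.6 and 15.6, and 32.2 and 6.76 CPM in the same order of lines. The SK-OV-3-like line showed the widest gap for both centralspindlin genes.

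ANLN had 114 and 6.09 CPM with and without these counts in the SK-OV-3-like line, 180 and 49.2 in the RARRES2-high line and 55.7 and 5.41 in the FOLR1-high line. PRC1 had 314 and 41.2, 358 and 130, and 141 and 30.7 CPM. For ANLN and PRC1 the RARRES2-high line was the highest on both sides of the split. For PRC1 with these counts, the intervals of the RARRES2-high line (335 to 382) and the SK-OV-3-like line (285 to 346) overlapped.

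The GTPases and kinases were nearly flat across the split. Over RHOA, PAK1, PAK2, CDC42 and RAC1 in 3 lines the ratios ran from 0.894 (CDC42, RARRES2-high line) to 1.25 (RAC1, RARRES2-high line). The interval lay above 1 in 2 of these 15 ratios, RAC1 (1.02 to 1.53) and RHOA (1.15, 1.01 to 1.31), both in the RARRES2-high line, where the median ratio over all genes was itself 1.09. The ratios of PAK1 had wide intervals, for example 0.614 to 1.33 in the SK-OV-3-like line.

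A fold of at least 2 in each of the 3 lines was found for 5 of the 10 genes, ECT2, RACGAP1, KIF23, ANLN and PRC1, against 1.54% of all genes (131 of 8486). In the opposite direction it was found for none of the 10, against 0.0236% of all genes (2 of 8486). When barcodes were split by MKI67 or TOP2A counts left after each was thinned to 2000 counts, 2 of the 10, RACGAP1 and KIF23, passed in every line, against 0.625% of all genes. In the RARRES2-high line RACGAP1 then had a fold of 2.01 and KIF23 of 2.10, only just above the limit. The genes that no longer passed fell short in the RARRES2-high line, where ECT2 then had a fold of 1.80, ANLN 1.56 and PRC1 1.88, while in the SK-OV-3-like and FOLR1-high lines the 5 genes had folds from 2.71 to 13.2.

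**Figure D3:**
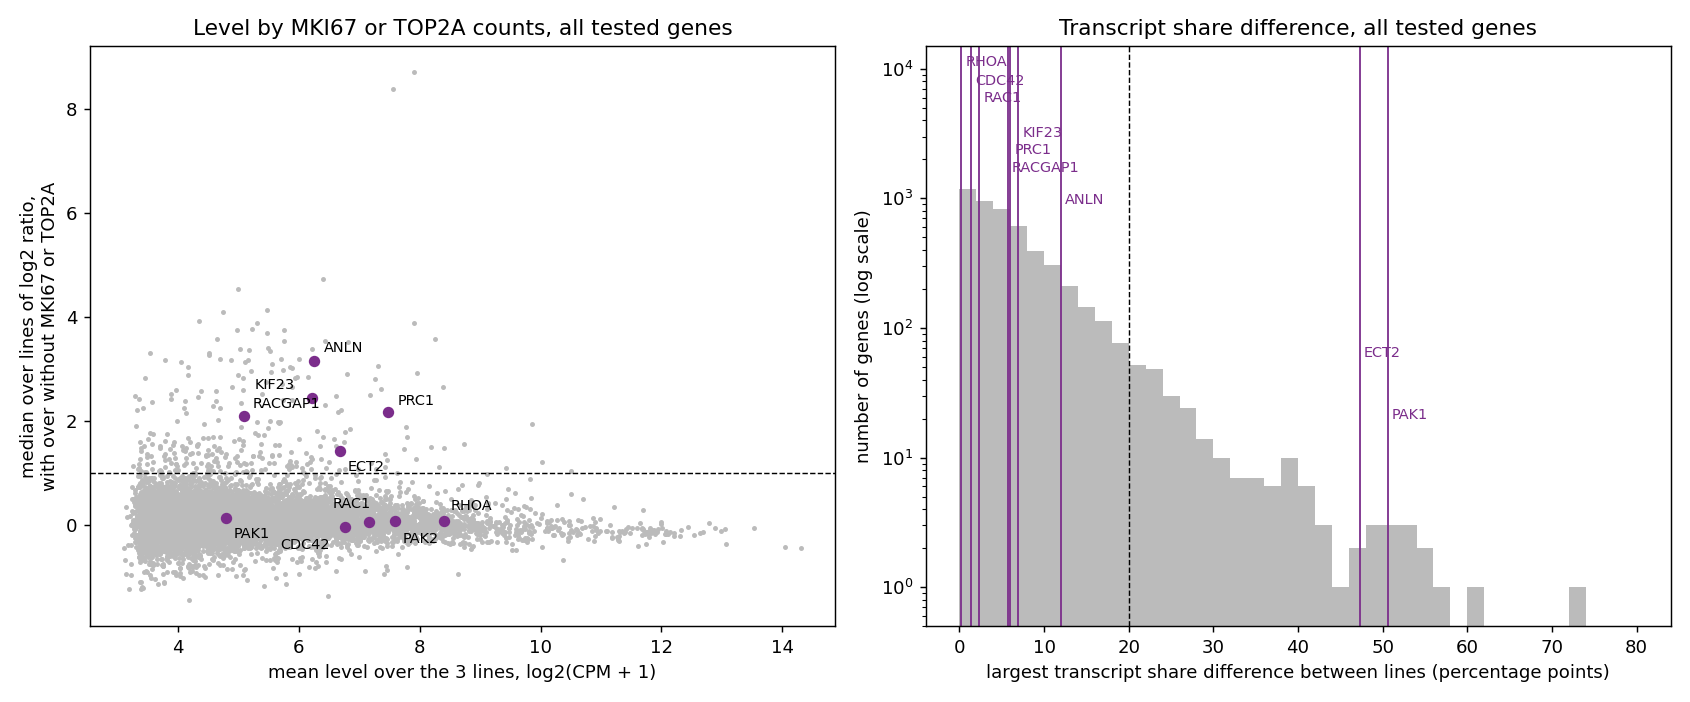
First panel: median over the 3 lines of the log2 ratio of levels with over without MKI67 or TOP2A counts, against the mean level in log2(CPM + 1), for each of 8486 genes; the 10 genes are coloured and the dashed line marks a fold of 2. Second panel: number of genes, on a log axis, by their largest transcript share difference between lines in percentage points, with the dashed line at 20; the cytokinesis genes stand above the dashed line in the first panel, and ECT2 at 47.3 and PAK1 at 50.6 stand to the right in the second.

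Barcodes were also ordered by other cell cycle markers after thinning to 2000 counts. The mitotic markers were CCNB1, CDC20, PLK1, CENPF, CENPE and UBE2C, and the S-phase markers were PCNA, MCM2, MCM5, RRM2, TYMS and CLSPN. Thinning left out 42, 30 and 32 shallower barcodes of the SK-OV-3-like, RARRES2-high and FOLR1-high lines. In barcodes with no marker count, with S-phase counts only, with 1 or 2 mitotic counts and with 3 or more, ECT2 stood at 26.6, 40, 104 and 247 CPM in the SK-OV-3-like line. In the RARRES2-high line it stood at 62.5, 86.2, 80.4 and 177 CPM, and in the FOLR1-high line at 38.9, 67.8, 73.8 and 258 CPM. The step from 1 or 2 mitotic counts to 3 or more was the largest in CPM for ECT2 in each line, and in that last class the intervals of the 3 lines overlapped.

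The other cytokinesis genes were also highest in the class with 3 or more mitotic counts. There KIF23 stood at 235, 121 and 223 CPM in the SK-OV-3-like, RARRES2-high and FOLR1-high lines, against 2.80, 35.7 and 17.5 in barcodes with no marker count. RACGAP1 stood at 133, 61.8 and 70.3 CPM against 4.20, 17.9 and 5.84. ANLN stood at 169, 196 and 93.8 CPM against 4.20, 44.6 and a count of 0 in the FOLR1-high line, for which the exact interval reaches 7.2 CPM. PRC1 stood at 464, 435 and 258 CPM against 30.8, 44.6 and 25.3. The lower level of PRC1 in the FOLR1-high line was seen in this class too, with an interval of 199 to 328 CPM against 366 to 580 in the SK-OV-3-like line and 371 to 508 in the RARRES2-high line. Over the 12 combinations of class and line RHOA ranged from 248 to 444 CPM, PAK2 from 123 to 283, RAC1 from 107 to 199 and CDC42 from 35.7 to 167. PAK1, with few counts after thinning, ranged from 5.38 CPM in the RARRES2-high line to 60.2 in the SK-OV-3-like line, both in the class with 3 or more mitotic counts.

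**Figure D4:**
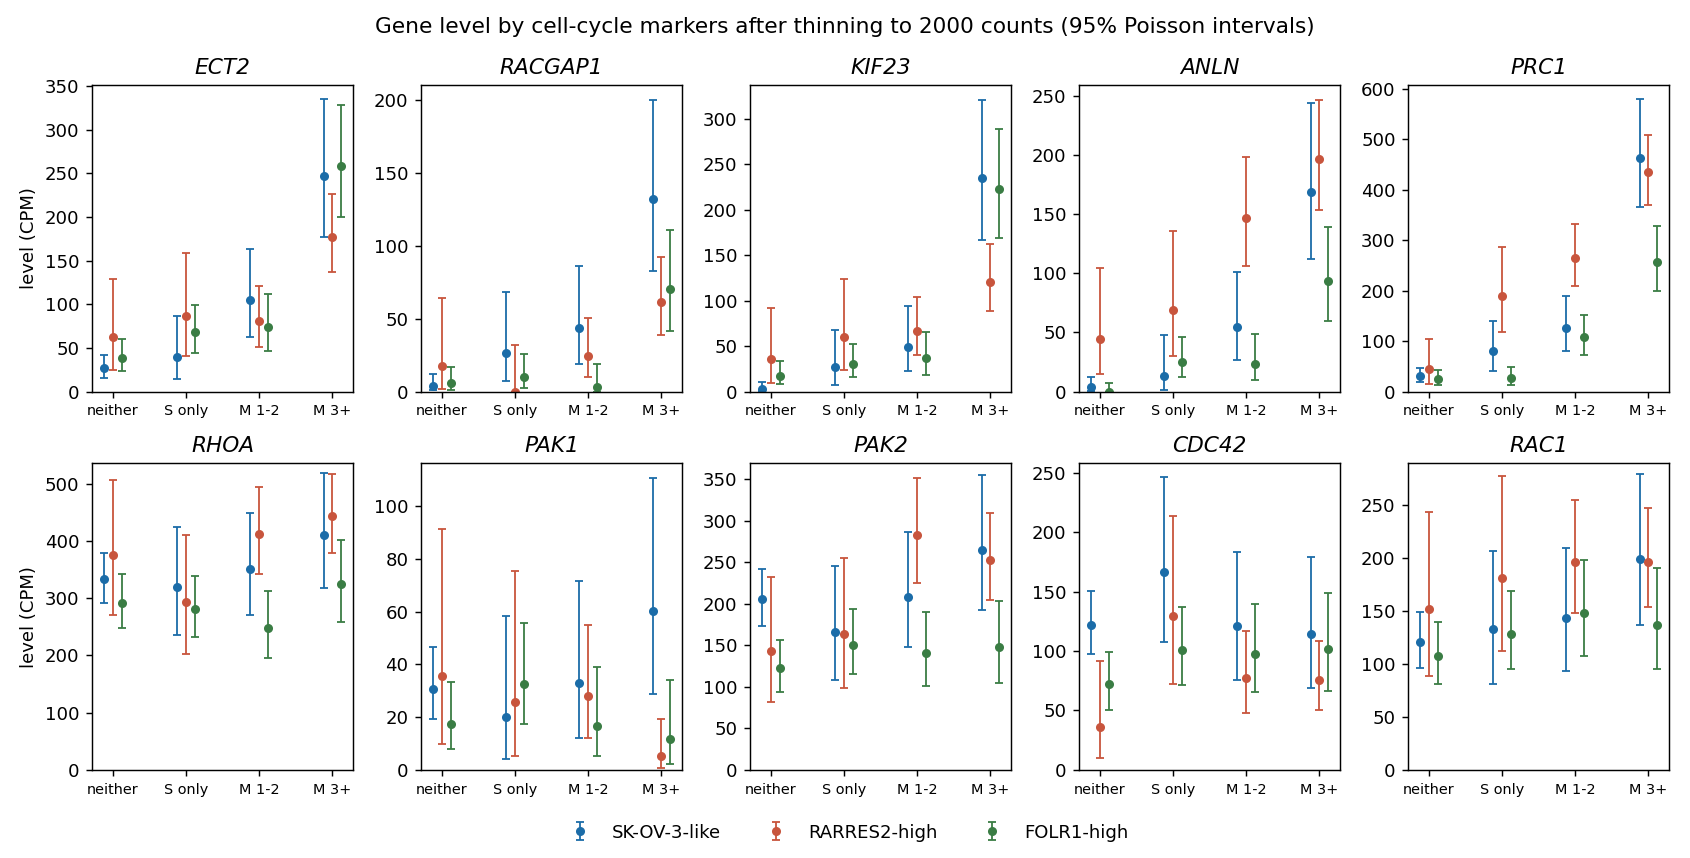
Level in CPM after thinning to 2000 counts in barcodes with no mitotic or S-phase marker count (neither), with S-phase counts only (S only), with 1 or 2 mitotic counts (M 1-2) and with 3 or more (M 3+), by line, with 95% exact Poisson intervals. ECT2 climbs to 247, 177 and 258 CPM in the last class of the SK-OV-3-like, RARRES2-high and FOLR1-high lines, as do its partners, while RHOA spans 248 to 444 CPM over all classes and lines.

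The exon share of ECT2 was also set beside the split. In the SK-OV-3-like line it was 61.7% of 249 counts with MKI67 or TOP2A and 35.6% of 53 counts without, a difference of 26.0 points (10.2 to 40). In the FOLR1-high line it was 74.6% of 318 and 62.3% of 113, a difference of 12.3 points (2.2 to 23.3). In the RARRES2-high line it was 24.4% of 367 and 21.9% of 45, a difference of 2.5 points with an interval of −13.3 to 14.1. Single, wholly assigned counts gave 18 of 24 with and 10 of 24 without in the SK-OV-3-like line, a difference of 33.3 points (2.6 to 58.1), but −1.4 points in the FOLR1-high line and −6.3 in the RARRES2-high line, both with intervals that include 0. The difference between the RARRES2-high and FOLR1-high lines held within both sides of the split: among barcodes with these counts, the exon share ran from 24.4% to 74.6%, and among those without from 21.9% to 62.3%. Among barcodes without, the intervals of the SK-OV-3-like line (23.1 to 50.2%) and the RARRES2-high line (11.2 to 37.1%) overlapped.

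PRC1 with its 42-base exon took 73.5% of 411 counts with and 53.2% of 88 counts without in the SK-OV-3-like line, a difference of 20.2 points (8.4 to 31.8). In single, wholly assigned counts it was 10 of 15 and 13 of 20, a difference of 1.7 points (−32.8 to 34.1). A difference of at least 20 points in any line was found for 2 of the 5 genes with enough counts, ECT2 and PRC1, against 0.397% of all genes (15 of 3783). Neither passed when 100 counts were asked on each side, since 53 and 88 were present on the lower one. With whole estimates the ECT2 difference was 22.7 points (−2.8 to 45.9) with 23 counts without MKI67 or TOP2A, under the minimum. That of PRC1 was −3.0 points (−23.1 to 17.8) with 42 counts without, also under the minimum. With 90% of marker counts asked of a line the ECT2 difference was 31.8 points (14.5 to 46.3), with 46 counts and so again under the minimum, and that of PRC1 was 17.8 points (4.5 to 30.5). With the split made after thinning they were 19.6 points (5.4 to 32.6) and 17.6 points (7.2 to 27.6), just under the limit.

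Smaller differences by MKI67 or TOP2A were measured in other exons. The form of CDC42 with the upstream last exon took 13.2% of 190 counts with and 7.6% of 321 counts without in the SK-OV-3-like line, a difference of 5.6 points (0.0053 to 11.9), which was 13.6 points (0.84 to 26.7) with whole estimates and 12.8 points (2.5 to 24.8) in single, wholly assigned counts. Of the counts of this form 99.0% were whole, against 40.1% for ENST00000344548 and 26.7% for ENST00000400259. Whole estimates therefore over-represent it, and the size of 13.6 points cannot be set beside 5.6. In the RARRES2-high and FOLR1-high lines all 3 measures gave CDC42 intervals that include 0. The noncoding exon of ECT2 was lower with these counts in all counts, with a difference of −12.8 points (−26.5 to −1.3) in the SK-OV-3-like line and −7.0 points (−15.1 to −1.0) in the FOLR1-high line, while the RARRES2-high interval was −27.8 to 0.55. With whole estimates the SK-OV-3-like, RARRES2-high and FOLR1-high differences were −2.8, −2.3 and 0 points. In single, wholly assigned counts they were 0, 4.0 and 1.6 points. Each of these intervals includes 0, and both measures under-represent this exon, so they do not settle its difference. In the RARRES2-high line the PRC1 exon differed by 11.4 points (1.5 to 21.5) in all counts. With whole estimates this was −4.5 points (−22.2 to 15.2) and in single, wholly assigned counts −7.6 points (−33.9 to 27.2), so its direction was not settled. These 3 exons are named because an interval left out 0 in at least 1 line, a choice made after their values were seen, and no difference of this paragraph reached 20 points.

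Other genes of the same processes were counted in fixed lists. All 14 mitotic spindle and midbody genes (AURKA, AURKB, PLK1, CEP55, KIF20A, KIF20B, KIF4A, KIF14, CIT, INCENP, BIRC5, CDCA8, NUSAP1 and TPX2) were at least 2-fold higher with MKI67 or TOP2A counts in each line, against 1.54% of all genes, with a median fold of 18.4, 3.42 and 7.81 in the SK-OV-3-like, RARRES2-high and FOLR1-high lines. Of these 14, 13 were highest in the RARRES2-high line over all its barcodes, as ECT2, RACGAP1, KIF23, ANLN and PRC1 were, and AURKB was highest in the FOLR1-high line, against 32.5% and 19.6% of all genes. That line also had the most barcodes with MKI67 or TOP2A counts by share (64.5%). Among barcodes with these counts only CEP55, BIRC5 and TPX2 of the list were highest in the RARRES2-high line. AURKB and KIF20B were highest in the FOLR1-high line. The rest were highest in the SK-OV-3-like line, for example NUSAP1 at 336 CPM against 258 and 227. Between lines, over all barcodes, 7 of the 14 passed 2-fold, a share no higher than the 54.5% of all genes, led by BIRC5, a subunit of the chromosomal passenger complex (3.93-fold: 99.1, 287 and 72.4 CPM), CEP55, which recruits the abscission machinery (2.86), and PLK1, the kinase that licenses ECT2 recruitment (2.63), and the lowest folds were 1.33 in CDCA8, 1.35 in INCENP and 1.48 in KIF14. The transcript shares of 2 of 11, AURKA at 20.4 points and AURKB at 24.1, differed between lines by at least 20, against 4.62% of all genes.

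Of 18 septin, actomyosin and formin genes, which build the ring, 1 passed 2-fold with MKI67 or TOP2A in each line, DIAPH3, a formin, against 1.54% of all genes. Between lines 9 of 18 passed 2-fold, again no more than the 54.5% of all genes. MYL9, a myosin regulatory light chain, had 1.45 CPM in the SK-OV-3-like line, 23.4 in the RARRES2-high line and 90.6 in the FOLR1-high line, and SEPT9, a septin, had 105, 280 and 48.7 CPM. ROCK1, a kinase downstream of RHOA, had 241, 164 and 53.4 CPM, and the smallest folds in the list were 1.17 in MYL6, 1.31 in PFN1 and 1.51 in SEPT7. MYL6, an essential myosin light chain, was the 1 of 17 genes compared whose transcript shares differed by at least 20 points between lines, at 24.1 points, against 4.62% of all genes.

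Of 11 ESCRT and abscission genes, which cut the last bridge between daughter cells, none passed 2-fold with MKI67 or TOP2A in each line, against 1.54% of all genes, and 8 were highest in the SK-OV-3-like line, against 47.8% of all genes. Between lines 6 of 11 passed, the same share as among all genes (54.5%), led by CHMP1A (2.63), CHMP1B (2.61) and CHMP4B (2.56), and the lowest folds were 1.29 in PDCD6IP, 1.45 in IST1 and 1.52 in TSG101.

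The genes most like ECT2 were sought by correlation, as a description without a test. Over the 6 groups of line by MKI67 or TOP2A, on log2(CPM + 10) and over 6164 genes with at least 200 counts, the 5 with the highest Pearson r were BRCA2 (0.993), KIF23 (0.992), KIFC1 (0.992), BARD1 (0.991) and NUP107 (0.991). RACGAP1 ranked 56, ANLN 202 and PRC1 209 by this measure, and RHOA, PAK1, PAK2, CDC42 and RAC1 had r from −0.197 to 0.251. The 6 points share 1 library and differ in depth. Over 1782 barcodes thinned to 2000 counts the highest were CENPF (0.302), HMGB2 (0.295), TOP2A (0.270), TPX2 (0.264) and NUSAP1 (0.252), and PRC1 ranked 10, KIF23 17, ANLN 44 and RACGAP1 71. KIF23, the motor of centralspindlin, was thus near ECT2 by both measures.

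Since the 5 cytokinesis genes were higher together with the cell cycle markers, their promoters were read for the core letters of the cell cycle genes homology region (CHR), TTTGAA, the element that the DREAM and MuvB complexes bind in many late cell cycle genes. The RefSeq table of promoters used here (GRCh38.p14) holds 300 bases around the start of 8 of the 10 genes. RACGAP1 and RAC1 have no entry in this table, so their promoters were not read. TTTGAA was found, on either strand, in each of the 4 cytokinesis genes with an entry, ECT2, KIF23, ANLN and PRC1, and in none of RHOA, PAK1, PAK2 and CDC42. Among 35116 windows of the same length 15.2% hold it. The 30 bases around the match closest before the first listed start are shown because they place the letters near the listed start, with the match in capitals and each sequence in the direction of its gene.
ECT2, chr3:172750599-172750628, plus strand: tcgttgggcttaTTTGAAacacacgcacaa
KIF23, chr15:69414282-69414311, plus strand: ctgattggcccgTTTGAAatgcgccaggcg
ANLN, chr7:36389827-36389856, plus strand: gcgctgaaaTTCAAATTTGAAcggctgcag
PRC1, chr15:90994538-90994567, minus strand: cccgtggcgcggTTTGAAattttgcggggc
Counted from the start in the RefSeq table, the match begins 115 bases before it in ECT2, 55 in KIF23, 26 and 20 in ANLN, where 2 matches on opposite strands touch, and 20 in PRC1. The authors' table places starts elsewhere: its ANLN transcripts and some of its KIF23 transcripts begin upstream of the match, which then lies after their start, and its PRC1 transcript ENST00000361188 also begins upstream. The ECT2 match lies before every ECT2 start in both tables. ECT2 has further matches 242 and 182 bases before its other listed start. The longer TTTGAAA was present in ECT2, KIF23 and PRC1 and in 6.13% of windows. CCAAT, the letters bound by NF-Y, stood in ECT2, KIF23, PRC1 and RHOA and in 34.6% of windows, and TTTAAA was in KIF23 and in 12.2% of windows. TTCGAA was in none of the 8 and in 1.45% of windows. All 5 sets of letters searched are given here, on both strands, and TTTGAA is contained in TTTGAAA. A match of letters is a description of the sequence, and no binding was measured.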

How the data were processed

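The authors deposited estimated counts per transcript and cell barcode for the PromethION library, unnormalised; the series design text names Isosceles, and per the submitters' processing notes the build was GRCh38 and Cell Ranger 6.0.1 was used. For the aligner and for molecular identifiers, nothing is stated in the sources used here. Of the matrix entries 39.8% were whole within 1e-06, as were 100% of sums per gene and barcode, so counts were split between transcripts of a gene only. The Illumina library was not used here. None of the 10 genes was part of a joint entry, and 29 of their 34 transcripts had at least 10 counts. All 34 matched GENCODE 29, from which exons were taken.

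With 1 library no test was run. Levels are CPM, with exact Poisson intervals; shares have exact Clopper-Pearson intervals from sums rounded to whole numbers; ratios have exact conditional binomial intervals, and differences of shares combine the single intervals (all 95%). Folds had 1 CPM added, and genes needed 100 counts. The scripts were checked on simulated data. Thinning drew 2000 counts without replacement with seed 0. Scrublet (scanpy 1.11.5, expected rate 0.02) marked doublets, which were kept, and left out as an alternative. Python 3.11.15, numpy 2.4.6, scipy 1.17.1 and pandas 2.3.3 were used.

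All 10 genes were named, and transcripts with at least 10% of a gene's counts in any line, with the alternative exons that separate them; of each list up to 3 of the largest and 3 of the smallest folds were named, and the 5 genes most like ECT2. AURKA, AURKB, DIAPH3 and MYL6 were also named after their values were seen. One further gene list is not reported here. Genes, lists and limits were chosen with earlier results of these data known.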

Additional observations from a re-analysis of the deposited data

How the results depend on the processing

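No paired analysis was possible because the study has 1 library per platform and the lines share no replicate numbers. Of 39 alternative values of the main results 29 stayed within the limits set and 10 moved; of 373 for single genes and exons 354 stayed, 18 moved and 1 reversed. The ECT2 exon share difference of 47.3 points became 54.8 points with whole estimates and 53.1 from single counts (this setting was added after seeing the data). The number of genes with a share difference between lines was 2, and 1 (ECT2) with 100 counts on both sides or with whole estimates; PAK1 then missed the count minimum, with a difference of 50.6 points in all counts and 34.3 (12.6 to 53.3) with whole estimates. The number with a fold between lines was 3, 7 at a fold of 1.5 (79.7% of all genes), and 2 with 10 CPM added (36.9%), where RACGAP1 fell short (log2 0.89), as it did from the mean of single barcodes (0.96). The number with a fold by MKI67 or TOP2A was 5, and 2 after thinning. The number with a share difference by MKI67 or TOP2A was 2, and 0 with 90% of marker counts, at 30 points, with 100 counts, with whole estimates and after thinning. The PRC1 exon difference of 5.97 points became −7.43 with whole estimates. The cause of these moves was not tested, except that some genes no longer met the count minimum. PAK1 missed it between lines, as above. In the split by MKI67 or TOP2A the minimum was missed in the SK-OV-3-like line. ECT2 missed it there with 90% of marker counts, with 100 counts and with whole estimates. PRC1 missed it there with 100 counts and with whole estimates. Depth limits PAK1, with 78 to 123 counts per line, and RACGAP1, with 89 to 152.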
